A study of Mus musculus with 6 samples.

Results

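Bidirectional promoters of coding gene pairs are stretches of DNA from which 2 protein-coding genes start on opposite strands and run away from each other. They were studied in open-chromatin data from the S1 segment of the mouse kidney proximal tubule, the first stretch of tubule after the glomerulus. A pair was 2 coding genes, head to head, with starts at most 1000 bp apart in the GENCODE M21 basic annotation of GRCm38, where the start is the 5′ end of the gene record. Among 21938 coding genes this rule found 754 pairs with 1487 genes, or 6.78% of coding genes. The members are the 701 accessible regions that overlap the span between such starts, of 126099 regions obtained by merging the peak intervals of all libraries that overlapped by at least 1 bp. They served 701 of the 754 pairs, since 19 pairs had 2 regions and 19 regions held 2 pairs. Pairs were counted by gene record, so Arl16/Hgs, Hdlbp/Sept2 and Chtf8/Utp4 each counted as 2 pairs in 1 region. The main comparison set was the 10491 regions that cover the start of another coding gene, called single starts here.

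The assay was ATAC-seq, in which the transposase Tn5 cuts accessible DNA and inserts sequencing adapters. Each of 6 libraries came from 3 hand-dissected S1 tubules of male wild-type C57BL/6 mice aged 7 weeks, taken 24 h after surgery, which was a mock operation (Sham, 3 libraries) or removal of 1 kidney (unilateral nephrectomy, UNx, 3 libraries). The kidney left after nephrectomy takes over filtration and grows, and its proximal tubule is the main site of that growth. It is not stated in the labels that the libraries of a group are from separate mice, so p-values measure only the spread between these samples, which may be technical.

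In a bidirectional promoter, transcription machinery is placed at 2 opposed start sites that share 1 nucleosome-free stretch. Such promoters are common in mammalian genomes, are mostly rich in CpG dinucleotides and usually lack a TATA box. Many of their genes serve functions needed in every cell, such as DNA repair, mitochondrial translation and respiration. ATAC-seq reads the openness of the shared stretch and not the transcription of either gene, and no RNA was measured in these libraries.

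The spans between the starts show how different these promoters are. The sequences below are from GRCm38, plus strand, 5′ to 3′, from the start of the minus-strand gene, named first, to the start of the plus-strand gene. Capitals mark matches, on either strand, to 13 short strings that stand for known promoter elements and are described further below. Nop14/Grk4 (chr5:34660148-34660379, starts 231 bp apart) and Hmbox1/Ints9 (chr14:64949871-64950045, 174 bp apart) are shown because they had the highest mean ranks by −log10 q of all members, and the span of each holds the ZNF143-type string, ACTACAACTCC in the first and its reverse complement GGAGTTGTAGT in the second. Mrps12/Sars2 (chr7:28741820-28741992) is shown for its 4 CCAAT strings and 1 GC box in a span of 173 bases.
Nop14/Grk4: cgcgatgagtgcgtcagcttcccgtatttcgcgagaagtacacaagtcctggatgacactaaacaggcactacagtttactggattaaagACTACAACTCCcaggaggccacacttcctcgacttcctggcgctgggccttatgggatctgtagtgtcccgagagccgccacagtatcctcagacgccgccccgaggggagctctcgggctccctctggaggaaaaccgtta
Hmbox1/Ints9: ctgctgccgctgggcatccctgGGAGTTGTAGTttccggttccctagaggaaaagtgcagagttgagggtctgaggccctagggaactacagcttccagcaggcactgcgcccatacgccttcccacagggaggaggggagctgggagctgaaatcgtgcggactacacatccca
Mrps12/Sars2: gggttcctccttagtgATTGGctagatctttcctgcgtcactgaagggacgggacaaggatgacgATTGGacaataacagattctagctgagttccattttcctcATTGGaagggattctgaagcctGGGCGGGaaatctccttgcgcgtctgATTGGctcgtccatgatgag

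The next 3 spans belong to pairs below the middle of the members by mean rank. Col4a4/Col4a3 (chr1:82586849-82586921) and Hadha/Hadhb (chr5:30155162-30155248) are short spans between genes whose 2 products work in 1 complex. Asb12/Pfn5 (chrX:95557987-95558104), one of the 5 lowest mean ranks in all 6 equal-length lists, is shown for its low GC content of 43.2% with 1 CpG in 118 bases.
Col4a4/Col4a3: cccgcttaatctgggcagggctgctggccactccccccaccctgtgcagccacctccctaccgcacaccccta
Hadha/Hadhb: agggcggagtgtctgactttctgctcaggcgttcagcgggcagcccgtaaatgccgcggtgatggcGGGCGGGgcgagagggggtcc
Asb12/Pfn5: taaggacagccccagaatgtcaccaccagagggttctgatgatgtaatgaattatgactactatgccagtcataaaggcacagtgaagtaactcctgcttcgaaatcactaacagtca

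The last 3 spans carry large differences between the operations, none of them past the threshold. Hist1h2bl/Hist1h2ai (chr13:21716143-21716422) and Ccdc157/Sf3a1 (chr11:4160293-4160350) ranked higher after UNx, and Ndufa1/Rnf113a1 (chrX:37191163-37191245) ranked lower. The histone span has 40% GC and 4 CCAAT strings, while the 58 bases between Ccdc157 and Sf3a1 are 77.6% GC with 2 GC boxes.
Hist1h2bl/Hist1h2ai: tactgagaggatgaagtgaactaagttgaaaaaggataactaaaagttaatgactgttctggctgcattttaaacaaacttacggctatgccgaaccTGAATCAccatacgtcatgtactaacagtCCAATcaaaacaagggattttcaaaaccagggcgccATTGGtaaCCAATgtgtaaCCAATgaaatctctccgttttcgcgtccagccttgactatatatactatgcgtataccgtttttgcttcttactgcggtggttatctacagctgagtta
Ccdc157/Sf3a1: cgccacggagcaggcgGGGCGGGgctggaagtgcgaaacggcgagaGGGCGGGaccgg
Ndufa1/Rnf113a1: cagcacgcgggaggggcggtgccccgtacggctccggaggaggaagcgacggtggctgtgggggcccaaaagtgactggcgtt

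The lists held 77355 to 100999 intervals per library, with Sham replicate 2 the shortest, and median −log10 q per interval from 12.1 in that list to 26.5 in UNx replicate 3. Read depth is unknown, because peak lists carry no read counts. Each list was therefore cut to its 77355 strongest intervals by −log10 q, and a region received the percentile of its best interval within its own list, which is 100 at the top of the list, and 0 where no interval of the cut list overlapped it. As a check of the tissue, 8 of 9 proximal tubule S1 markers had an interval within 1000 bp of the gene start in all 6 lists, among them Slc5a2 and Slc34a1, the sodium-coupled glucose and phosphate transporters of this segment. The ninth, Hnf4a, had one in 2 lists at the outermost start used here. Of 6 markers of other nephron segments 3 were present in all 6 lists (Umod, Slc12a1 and Scnn1g) and the distal markers Slc12a3 and Aqp2 in none. Of 5 non-epithelial markers 2 were present in all 6 lists (Tagln and Col1a1), and the endothelial Pecam1 and leukocyte Ptprc in none.

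Nearly all paired-start regions were found in every library. Of the 701 regions, 678 (96.7%) were among the strongest intervals of all 6 libraries, 17 were in 1 to 5 of the equal-length lists and 6 in none. The same held for 9368 single-start regions (89.3%) and for 37.4% of the 114907 regions at no coding start. Counted per promoter instead of per region, 92.1% of pairs overlapped an interval in an average library, against 51.6% of the 20451 other coding starts. The difference was 40.5 ± 0.428 percentage points (SD, n = 6 libraries), and it was positive in 6 of 6 libraries (two-sided exact sign-flip permutation test, p = 0.031). A span offers more bases to overlap than the single base that stands for another start. With 500 bp allowed on either side of the single start, the difference was 36.3 points.

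Paired starts also ranked higher among the peaks. Their median percentile was 91.7, 92.5 and 92.8 in the Sham libraries and 91.9, 89.7 and 92.9 in the UNx libraries. Single starts had medians of 85.0, 85.5 and 85.3 in Sham and 84.4, 82.9 and 86.3 in UNx. The ranges of the 2 classes did not meet, and UNx replicate 2 was the lowest library for both. The difference was 7.02 ± 0.406 percentile points (SD, n = 6, exact sign-flip p = 0.031, which is the smallest p that 6 libraries can give). Adjusted for the 4 comparisons of this kind (presence, rank, width and summits), each p was again 0.031 by Benjamini-Hochberg. The test asks whether the 6 libraries point the same way, and the libraries share the same regions.

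**Figure D1:**
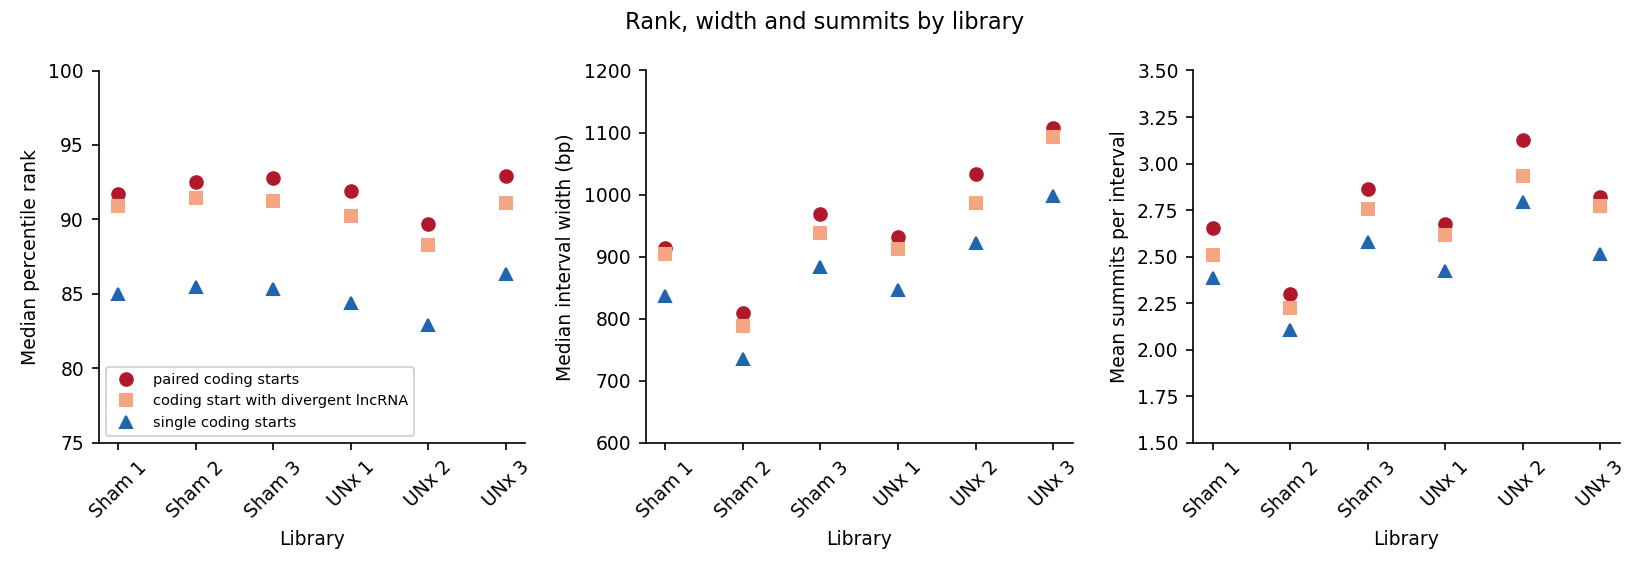
Median percentile rank (left), median interval width in bp (middle) and mean summits per interval (right), with 1 point per library for paired starts, coding starts with a divergent lncRNA and all single starts; the vertical axes do not start at 0. Paired starts lie above both other classes in every library for all 3 measures.

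Paired starts were also more often at the very top of the lists. Of paired starts 56.1% reached percentile 90 or above in an average library, against 38.3% of single starts and 2.88% of regions at no coding start. At percentile 99 or above the shares were 9.51%, 5.35% and 0.127%. Both differences between paired and single starts, 17.7 ± 2.29 and 4.16 ± 1.07 percentage points (SD, n = 6), were positive in 6 of 6 libraries (exact sign-flip p = 0.031, adjusted p = 0.0352 over 9 comparisons chosen after the data were seen). By their mean over the 6 libraries, 258 paired regions lay between 95 and 100, and 9 lay below 5.

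**Figure D2:**
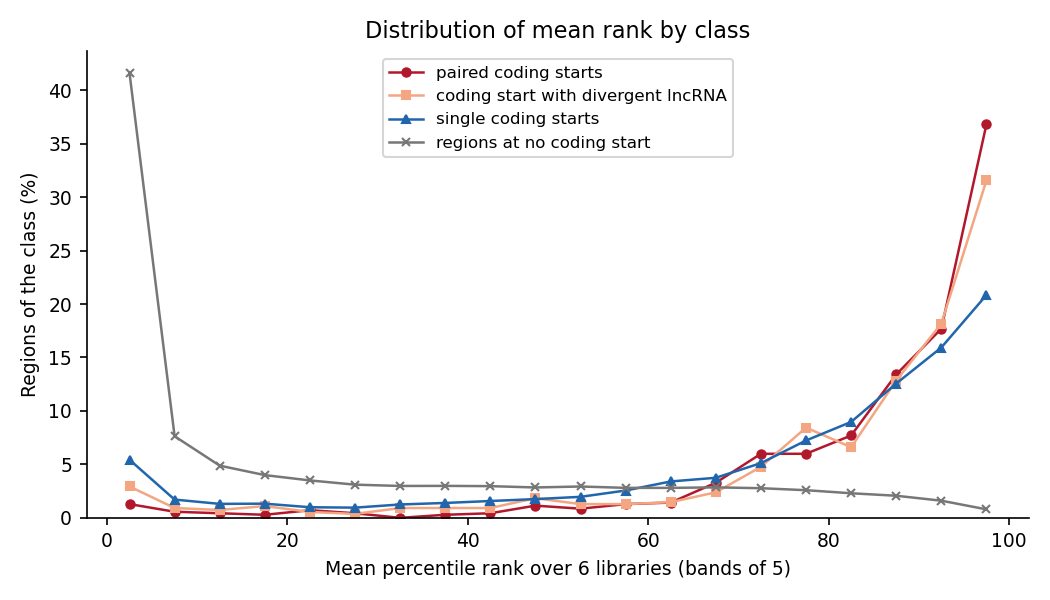
Share of regions (percent, vertical axis) in each band of 5 percentile points of mean rank over 6 libraries (horizontal axis), for paired starts, coding starts with a divergent lncRNA, all single starts and regions at no coding start. Paired starts pile up in the top band, which holds 258 of the 701, while regions at no coding start pile up in the lowest.

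Intervals at paired starts were wider and held more summits, the local maxima that the peak caller marks inside an interval. The median width was 914, 809 and 968 bp in Sham and 932.5, 1034 and 1108 bp in UNx. It exceeded the median of single starts in the same library by 73.5 to 112 bp, on average by 90.8 ± 16.7 bp (SD, n = 6, exact sign-flip p = 0.031). The mean number of summits per interval was 2.65, 2.30 and 2.86 in Sham and 2.68, 3.13 and 2.82 in UNx, above single starts by 0.274 ± 0.0495 (SD, n = 6, exact sign-flip p = 0.031). Intervals with 1 summit made up 15.4% of paired and 24.2% of single starts, and those with 4 or more made up 25.3% and 18.5%. Wider and stronger intervals go together, so the comparison was repeated on intervals at percentile 90 or above only. There the differences were 48.6 bp and 0.207 summits, still positive with p = 0.031 in the exact test over the 6 libraries.

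Over all pairs, the median reach of the open stretch was similar past minus-strand and plus-strand starts. Which gene lies on the minus strand is arbitrary, so these medians do not show how even single pairs were. Evenness within a pair was not tested. The interval covered both starts in 88.3 ± 1.62% of combinations of a pair and an interval (SD, n = 6 libraries). A pair with 2 regions could enter once for each. Where it covered both, it reached a median of 405 ± 51.2 bp past the start of the minus-strand gene into its body and 410 ± 59.5 bp past that of the plus-strand gene. At single starts the interval ran 502 ± 54.6 bp into the gene and 327 ± 24.3 bp upstream. Intervals at paired starts reached less far into each gene than those at single starts, by 94.2 ± 3.72 bp in 6 of 6 libraries (exact sign-flip p = 0.031, adjusted p = 0.0352). Among these intervals the strongest summit lay between the 2 starts in 52.5 ± 3.13%, and in 67.3 ± 2.94% where the starts were more than 100 bp apart. It was within 100 bp of the midpoint in 68.1 ± 4.06%, with a median offset of −5.08 bp, where a negative value is toward the minus-strand gene. That median joins offsets in both directions, and the median absolute offset was 58.8 ± 5.88 bp. At single starts whose interval covered the start, the strongest summit was within 100 bp of that start in 65.55 ± 1.70%.

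Most paired starts were close together. The median distance was 129.5 bp, the quartiles were 67 and 240 bp, and 618 pairs (82.0%) were at most 300 bp apart. The closest pairs were not the most accessible. The 287 regions of pairs 1 to 100 bp apart had a median percentile of 88.8 ± 1.88 (SD, n = 6 libraries), the lowest of the 4 distance bands in every library. Medians were 94.6 ± 0.883 for the 188 regions at over 100 to 200 bp, 94.2 ± 0.738 for 88 at over 200 to 300 bp and 92.8 ± 0.926 for 138 at over 300 to 1000 bp. The step from the first band to the next was 5.71 ± 1.24 points, positive in 6 of 6 libraries (exact sign-flip p = 0.031, adjusted p = 0.0352). The median fold enrichment at the summit, 12.4 and 12.8 in these bands, differed by 0.352 ± 0.589, with 5 of 6 libraries positive (exact sign-flip p = 0.156, adjusted p = 0.156). By fold enrichment the order was another: the medians were 12.2 at over 200 to 300 bp and 11.3 at over 300 to 1000 bp, where it was the lowest of the 4 bands in every library. The bands were chosen after the data were seen.

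Near the distance limit the values were as follows, with no test. The 16 pairs over 800 and up to 1000 bp apart had 20 regions with a median mean rank of 81.4 and a median width of 713 bp. Just outside the limit, 20 pairs over 1000 and up to 1200 bp apart had 24 regions with a median rank of 85.0 and a width of 772 bp.

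**Figure D3:**
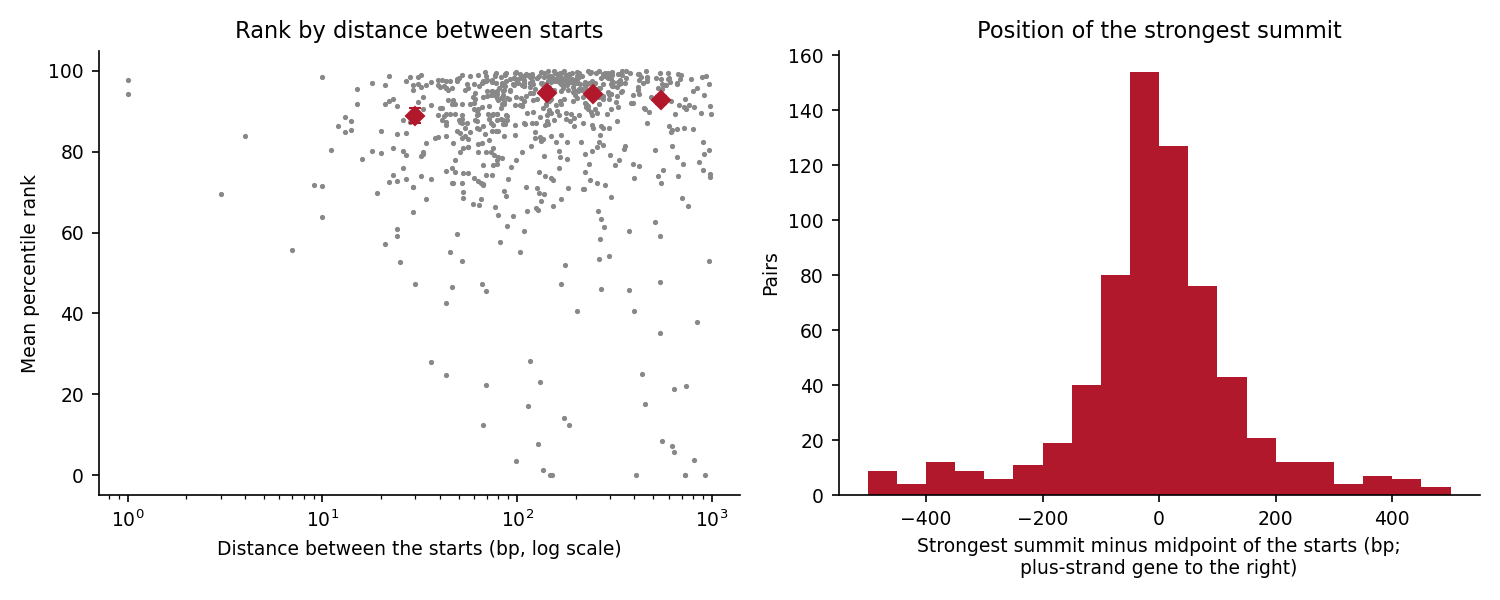
Left, mean percentile rank over 6 libraries of each paired region (grey points) against the distance between the starts in bp (log scale), with diamonds at the median of each of the 4 distance bands and bars for its SD over libraries; right, position of the strongest summit relative to the midpoint of the starts in bp, for the 655 of 682 pairs with 1 region that lie within 500 bp. The band up to 100 bp has the lowest median, 88.8, and the summits gather around the midpoint.

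Paired starts were richer in CpG than single starts but not in GC. In 300 bases around the strongest summit the median GC content was 63.7% at paired and 65.0% at single starts, and the median ratio of observed to expected CpG was 0.861 and 0.794. With CpG-dense defined as a ratio of at least 0.6 and GC of at least 50%, 625 paired regions (89.2%) and 7985 single starts (76.1%) qualified. Among CpG-dense regions alone the medians were 92.3 and 87.4 percentile points, a difference of 4.87 (exact sign-flip p = 0.031 over 6 libraries). The 76 paired regions that were not CpG-dense had a median of 87.2, against 70.6 for 2506 such single starts.

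Coding starts with a divergent long noncoding RNA stood between the classes. At 545 single starts an annotated lncRNA began head to head within 1000 bp, and there the median rank was 90.5, the width 937 bp and the number of summits 2.63. Single starts with no such lncRNA had a median rank of 84.5. Paired coding starts exceeded the coding-lncRNA starts by 1.38 ± 0.371 percentile points, 24 ± 13.7 bp and 0.107 ± 0.0555 summits (SD, n = 6), each in 6 of 6 libraries (exact sign-flip p = 0.031, adjusted p = 0.0352). At percentile 99 or above the order was the other way, with 10.4% of coding-lncRNA and 9.51% of coding pairs. That last difference was not tested.

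The 13 strings were searched on both strands in 300 bases around the strongest summit of each region, and no string contains another. The ETS string, for factors such as GABPA, was CCGGAAGT. That of CREB/ATF factors was TGACGTCA and that of YY1 was AAGATGGCG. NF-Y was represented by CCAAT, and SP and KLF factors by the GC box, which reads GGGCGGG. The TATA box was searched as TATAAA, the E-box of bHLH factors as CACGTG, and the site of AP-1 as TGANTCA, where N is any base. The HNF4 string was CAAAGTCCA, and that of ZNF143 was ACTACAACTCC with any base allowed at position 8. The 10-base NRF1 palindrome, the CTCF core and the HNF1 palindrome were the other 3. A match is a description of letters and not a bound site. The ETS string was in 12.7% of paired, 7.08% of single and 0.486% of other regions, and in CpG-dense regions alone in 13.3% of paired and 8.57% of single starts. The YY1 string was in 5.28%, 2.81% and 0.223%, the ZNF143 string in 4.28%, 2.15% and 0.113%, and the NRF1 string in 2.71%, 1.62% and 0.0696%. CCAAT was in 44.1%, 35.6% and 31.0%.

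The GC box was in 54.2% of paired, 52.1% of single and 5.54% of other regions. In CpG-dense regions alone the order was the other way, with 56% of paired and 59.97% of single starts. The CREB/ATF string was in 4.28% of paired and 3.12% of single starts, the CTCF string in 6.42% and 7.55%, and the E-box in 9.70% and 9.44%. For the E-box the shares in CpG-dense regions alone were 10.24% and 10.34%. TATAAA was scarcer at paired starts, 3.00% against 4.30% and 13.6% in other regions. Strings of tubule factors were scarce as well. The HNF4 string was in 0.713% of paired, 0.591% of single and 2.60% of other regions, and the HNF1 string in 0 of 701 paired regions, 0.0667% of single and 0.317% of other regions. The AP-1 string was in 4.14%, 3.65% and 10.97%. None of these shares was tested.

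Paired regions with a ZNF143 or CCAAT string ranked higher than the rest. The 30 regions with the ZNF143 string had a median mean rank of 97.2, against 91.4 without it. For CCAAT (309 regions) the medians were 95.3 and 87.7, and for the GC box (380 regions) 93.2 and 89.1. The ETS string went with no higher rank, with medians of 89.2 with and 91.8 without it. These are descriptions of regions that share all 6 libraries.

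Textbook head-to-head pairs spanned a wide range of openness. Of 29 such pairs listed from memory, 6 met the rule in this annotation. Atm/Npat, a DNA damage kinase and a coactivator of histone genes, ranked 99.2, 99.4 and 98.8 in Sham and 99.5, 98.6 and 98.7 in UNx. Mcm4/Prkdc, a helicase subunit and the catalytic subunit of DNA-dependent protein kinase, had a mean rank of 98.5 ± 0.987 (SD, n = 6). Mrps12/Sars2, a mitochondrial ribosomal protein and the mitochondrial seryl-tRNA synthetase, ranked 98.6, 95.7 and 99.4 in Sham and 96.0, 91.7 and 97.5 in UNx. These 3 pairs were in the upper part of the members in every library, with overlapping groups.

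Brca1/Nbr1, a homologous recombination factor and an autophagy receptor, was more variable. It ranked 96.0, 87.8 and 97.3 in Sham and 97.9, 94.0 and 96.2 in UNx, with 4 or 5 summits in each list. The low value was Sham replicate 2, which lay below all other libraries. Col4a4/Col4a3, the collagen chains of the mature glomerular basement membrane, ranked 87.5, 83.1 and 87.8 in Sham and 91.2, 84.0 and 94.7 in UNx.

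Hadha/Hadhb encodes the 2 subunits of the mitochondrial trifunctional protein, which runs the last steps of long-chain fatty acid oxidation, the main fuel of this segment. It was wide but not strong. It ranked 70.5, 69.1 and 72.0 in Sham and 64.8, 68.0 and 77.1 in UNx. Its interval was 1398, 574 and 977 bp wide in Sham and 1406, 1455 and 1383 bp in UNx, with 5, 2 and 3 summits in Sham and 5 in every UNx library. Sham replicate 2, the shortest list, had the narrowest interval.

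By −log10 q, the top of the members held Nop14/Grk4 (a small ribosomal subunit assembly factor and a receptor kinase), Hmbox1/Ints9 (a homeobox protein and an Integrator subunit), Prkra/Pjvk, Zfp654/Cggbp1 and Rpgrip1l/Fto (a ciliary transition zone protein and an RNA demethylase). Nop14/Grk4 had a mean rank of 99.96 and Rpgrip1l/Fto, the fifth, of 99.91, and the lowest value of any of the 5 in a library was 99.81. Ranked by fold enrichment, Rpgrip1l/Fto stood at 98.8, Hmbox1/Ints9 at 98.1, Prkra/Pjvk at 97.2, Nop14/Grk4 at 95.95 and Zfp654/Cggbp1 at 92.2. The lowest of those present in all 6 equal-length lists were Foxa3/Sympk (37.8), Asb12/Pfn5 (28.3), Spaca9/Ak8 (25.1), Asl/Crcp (24.9) and Sirt1/Dnajc12 (22.1). For Foxa3/Sympk and Sirt1/Dnajc12 this was the weaker of 2 regions in the span, and the other had a mean rank of 95.7 and 90.5. Asl, argininosuccinate lyase, makes arginine in the proximal tubule, and its pair ranked 6.57, 42.0 and 28.4 in Sham and 2.82, 33.7 and 35.6 in UNx, so that its libraries differed widely within each group.

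Genes of maintenance functions were often in pairs, and tubule genes were not. Against 6.78% of all coding genes, pairs held 29 of 105 DNA repair and replication genes (27.6%), 18 of 78 mitochondrial ribosome genes (23.1%), 24 of 103 respiratory chain and ATP synthase genes (23.3%) and 14 of 58 Mediator and RNA polymerase genes (24.1%). They held 13 of 70 trafficking genes (18.6%), 8 of 45 splicing factor genes (17.8%), 8 of 50 proteasome genes (16%), 5 of 37 tRNA synthetase genes (13.5%) and 9 of 85 ribosomal protein genes (10.6%). Zinc finger genes (20 of 394, 5.08%) and solute carriers (17 of 385, 4.42%) were below the share of all genes, and none of 46 S1 tubule genes was in a pair. The 27 of 67 clustered histone genes (40.3%) are near-identical copies. These shares are properties of the annotation and were not tested. The respiratory chain list includes assembly factors such as Ndufaf2, and the solute carrier list includes Slc7a6os, which is not itself a carrier.

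Openness differed among these groups. Paired regions of DNA repair and replication genes had a median rank of 94.9 (26 regions), against 89.9 for single starts of the same list. The median was 92.1 at paired and 89.1 at single starts for the respiratory chain, 92.4 and 86.8 for Mediator and polymerases, 90.7 and 84.5 for splicing factors and 89.4 and 86.4 for trafficking. It was 89.2 and 88.9 for mitochondrial ribosome genes, 89.4 and 89.6 for the proteasome, and 90.6 and 91.6 for tRNA synthetases. The 15 paired regions of solute carriers had a median of 96.5, against 79.8 for 249 single starts. Fkbp15/Slc31a1, which holds the copper importer, ranked 99.4, 96.3 and 96.9 in Sham and 98.6, 98.9 and 98.8 in UNx.

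Ribosomal protein genes went the other way, with a median of 74.6 in 9 paired regions and 88.3 in 69 single starts. These 9 paired regions belong to 8 of the genes, as Zwilch/Rpl4 had 2 regions and Rnf151/Rps2 had none. Rps28/Ndufa7, whose starts are 10 bp apart, ranked 68.4, 53.6 and 71.5 in Sham and 68.7, 51.5 and 69.9 in UNx. Rpl9/Lias ranked 76.8, 79.5 and 79.1 in Sham and 61.9, 65.1 and 85.5 in UNx. Med22/Rpl7a was the highest of the 9, with a mean of 96.3 ± 1.63 (SD, n = 6). None of these list medians was tested.

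No interval overlapped the span of 53 pairs. For 9 of them a region lay within 1000 bp, for 24 within 5000 bp and for 29 there was none within 5000 bp. Kirrel2/Nphs1, the genes of 2 slit diaphragm proteins of the podocyte, had its nearest region 209 bp away. Pecam1/Milr1, an endothelial and a leukocyte gene, had none within 7822 bp. Histone genes were in 7 of these pairs. Some pairs of genes used in most cells were also without an interval: the nearest region was 16915 bp from Psma7/Ss18l1, 5884 bp from Ftsj3/Psmc5 and 51857 bp from Alyref/Anapc11. Why these spans had none was not tested.

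As a class, the paired starts had a slightly lower rank after UNx, within the spread of the libraries. Over the 690 regions that at least 3 of the equal-length lists contained, the median rank was 92.6 ± 0.559 in Sham and 91.6 ± 1.66 in UNx (SD, n = 3), a difference of −0.944 percentile points (exact permutation test, two-sided, p = 0.6, where 3 libraries against 3 cannot go below 0.1). The groups overlapped, with UNx replicate 2 the lowest. With ranks corrected for GC content the difference was −1.40 and the groups were separate (exact permutation p = 0.1, n = 3 per group), with ranks by fold enrichment it was −2.71 (exact permutation p = 0.3), and with the 20000 strongest peaks −2.93 (exact permutation p = 0.4). Without UNx replicate 2 it was −0.0371. The advantage of paired over single starts was 6.97 ± 0.512 points after UNx and 7.08 ± 0.375 after Sham, a difference of −0.109 (exact permutation p = 0.8, n = 3 per group) whose sign changed with the definition of a start and which was −1.01 with ranks by fold enrichment (exact permutation p = 0.1).

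Intervals at paired starts had a larger mean width after UNx, 1025 ± 88.1 against 897 ± 80.9 bp, without passing the test (exact permutation p = 0.2, n = 3 per group). The groups overlapped, since Sham replicate 3 at 968 bp lay above UNx replicate 1 at 932.5 bp. Summits numbered 2.88 ± 0.231 and 2.61 ± 0.284 (exact permutation p = 0.4, n = 3 per group). Single starts had medians of 837, 735.5 and 883 bp in Sham and 846, 922 and 997 bp in UNx, in the same direction. The median width of all intervals of a list was lowest in Sham replicate 2 (342 bp) and highest in UNx replicate 3 (422 bp). The part of list length and signal in this difference was not tested.

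Region by region, 0 of the 690 paired regions differed between the operations at an adjusted p under 0.05 (limma on percentile ranks, Benjamini-Hochberg over all 74762 regions tested), where 0.811% of all tested regions did. At an unadjusted p under 0.05 there were 67 (9.71%), against 18.6% of all tested regions and 13.5% of single starts. In 118 regions (17.1%) the 3 UNx and 3 Sham values did not overlap, against 23.7% of all tested regions. Of these 43 were higher after UNx (12% of all tested regions were) and 75 lower (11.7%). The direction of this split depended on the scale: with ranks over all deposited intervals it was 72 higher and 48 lower, with ranks by fold enrichment 22 and 105, and with ranks corrected for GC content 26 and 126. Without UNx replicate 2 it was 112 and 97, and without UNx replicate 3 it was 61 and 148.

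The paired starts varied less than other regions. Their median SD within a group was 2.49 percentile points, against 3.71 for single starts and 8.45 over all tested regions. A percentile close to 100 has little room to vary. Among regions with a mean rank of at least 90, the groups did not overlap in 17.5% of paired, 21.1% of single and 21.8% of other regions. The median difference, UNx minus Sham, was −0.200 for paired regions and −0.00776 for all tested regions. The value for paired regions was 0.174 with all deposited intervals, 0.2995 without UNx replicate 2, −2.04 with ranks by fold enrichment and −1.47 with ranks corrected for GC content.

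**Figure D4:**
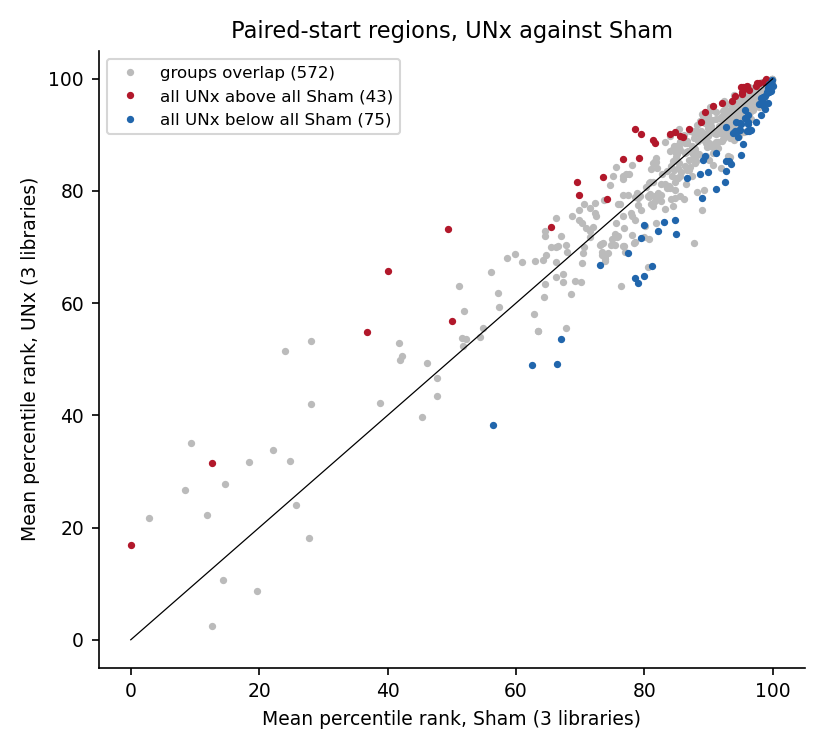
Mean percentile rank after UNx (vertical axis) against Sham (horizontal axis), 3 libraries each, for the 690 tested paired regions, with the diagonal as a line. Coloured points are regions whose 3 UNx and 3 Sham values do not overlap, 43 higher and 75 lower after UNx, and most points lie near the diagonal at the top right.

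The largest differences among regions with separate groups were at regions in the lower part of the members by mean rank, and none passed the threshold. Smim7/Tmem38a, a small membrane protein and a cation channel of the endoplasmic reticulum, has starts 967 bp apart and 2 regions in its span. The weaker region, which covers the start of Tmem38a and not that of Smim7, ranked 27.9, 51.3 and 40.8 in Sham and 56.2, 64.5 and 76.6 in UNx. Every UNx library was above every Sham library, by 25.8 points on average (limma adjusted p = 0.121). Its interval was 303 to 460 bp wide. The other region, at the start of Smim7, ranked 96.2, 97.4 and 94.8 in Sham and 97.9, 97.8 and 96.6 in UNx, with overlapping groups.

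Hist1h2bl/Hist1h2ai, an H2B and an H2A gene of the replication-dependent histone cluster, ranked 60.5, 47.3 and 40.2 in Sham and 67.4, 78.8 and 73.4 in UNx. The UNx libraries were all higher, by 23.8 points (limma adjusted p = 0.0911). Its interval was 597, 284 and 559 bp wide in Sham and 700, 696 and 740 bp in UNx, so that here width and rank were higher together. Its span, shown above, has 4 CCAAT strings. Histone genes of this kind are expressed during DNA replication and occur in near-identical copies, to which reads may be assigned ambiguously. Of the 7 paired histone regions tested, this 1 had separate groups, as did 23.7% of all tested regions.

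Among the other large positive differences, Sirt1/Dnajc12 (a deacetylase and a co-chaperone, +18.8, limma adjusted p = 0.361) and Cbln3/Khnyn (+16.9, limma adjusted p = 0.256) were the weaker of 2 regions of their span. Cbln3/Khnyn ranked 0 in every Sham list and 8.99, 24.5 and 17.2 in UNx. It met the filter of at least 3 lists only through the UNx lists, so its separate groups and its p were shaped by that filter.

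The 5 largest negative differences were Tssk3/Fam229a (−18.2), Ndufa1/Rnf113a1 (−17.3), Taf5l/Urb2 (−15.5), Cfap57/Ebna1bp2 (−15.0) and Acot13/Tdp2 (−14.5), with limma adjusted p from 0.138 to 0.272. Leaving out 1 library moved Tssk3/Fam229a to −11.7 (without UNx replicate 1) and Cfap57/Ebna1bp2 to −9.64 (without UNx replicate 2). Ndufa1 encodes a subunit of respiratory complex I, and Rnf113a1 is a RING finger protein of the spliceosome. The pair ranked 65.8, 73.2 and 60.4 in Sham and 39.9, 50.6 and 56.8 in UNx, lower in each UNx library. Taf5l/Urb2, a subunit of histone acetyltransferase complexes and a ribosome assembly factor, ranked 77.4, 86.3 and 73.5 in Sham and 61.4, 58.1 and 71.3 in UNx. Acot13/Tdp2, a thioesterase and an enzyme that removes topoisomerase adducts from DNA, ranked 81.3, 80.2 and 82.2 in Sham and 58.9, 65.7 and 75.4 in UNx.

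The 3 regions of smallest p were singled out after their values were seen. Brix1/Rad1, a ribosome assembly factor and a subunit of the DNA damage checkpoint clamp, ranked 94.4, 93.2 and 93.1 in Sham and 88.0, 83.2 and 83.5 in UNx. The difference was −8.66 (limma, unadjusted p = 0.00117 and adjusted p = 0.0682). Fam229b/Tube1, which holds epsilon tubulin, ranked 90.4, 92.8 and 90.5 in Sham and 76.0, 84.9 and 80.1 in UNx (difference −10.9, limma adjusted p = 0.0722). Ccdc157/Sf3a1, which holds a subunit of the U2 spliceosomal particle, ranked 78.8, 78.4 and 81.4 in Sham and 88.0, 89.6 and 93.0 in UNx (difference +10.7, limma adjusted p = 0.0738). In each of the 3 the groups were separate, and the Sham values lay within 3 percentile points of each other.

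**Figure D5:**
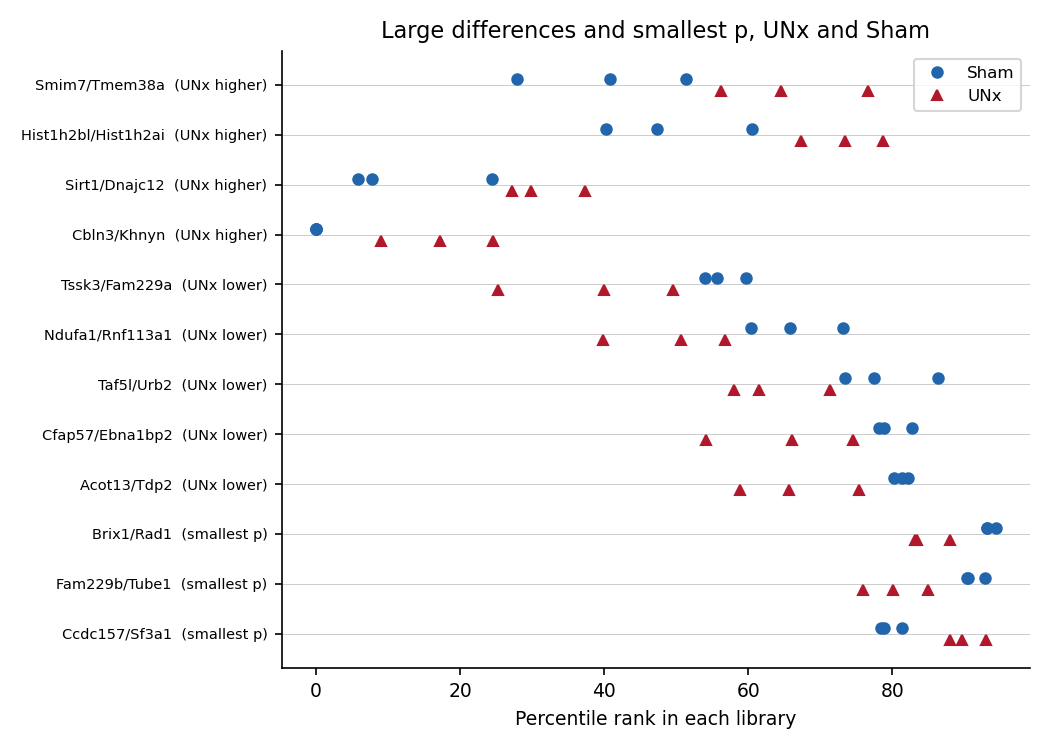
Percentile rank (horizontal axis) in each of the 3 Sham libraries (circles) and 3 UNx libraries (triangles) for the paired regions with large differences described here, all with separate groups, and for the 3 of smallest p. Smim7/Tmem38a shows the largest of these differences, 25.8 points, and Brix1/Rad1 the smallest p.

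Regions seen after 1 operation only were weak. With all deposited intervals counted, 3 paired regions had an interval in all 3 UNx lists and in no Sham list: Sgce/Peg10, the second region of Dedd2/Zfp526 and that of Cbln3/Khnyn. Sgce and Peg10 are neighbouring imprinted genes, expressed from the paternal copy, and their region ranked 7.41, 0 and 13.0 in the UNx lists. The highest rank among the 3 regions was 24.5, in UNx replicate 2 for Cbln3/Khnyn. No paired region had an interval in all Sham lists and in no UNx list. The share of all merged regions with either pattern is not given here, so these counts cannot be called unusual. The deposited lists also differ in length, with 77355 intervals in Sham replicate 2 and 93583 to 100999 in the UNx lists. The part of list length in these counts was not tested.

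No gene list had a region past the threshold. The counts of separate groups in the lists are to be read against all tested regions, of which 12% were higher and 11.7% lower after UNx. Of 26 DNA repair and replication regions, 1 was higher and 3 were lower after UNx with separate groups. Of 24 respiratory chain regions 1 was higher and 2 lower, and of 18 mitochondrial ribosome regions 0 in either direction. Of 9 ribosomal protein regions 1 was lower, and of 15 solute carrier regions 2 were lower. Among the 373 tested regions with a GC box 48 were lower and 16 higher, and among the 317 without it 27 were lower and 27 higher. The regions with a GC box had a median GC content of 65.7%, against 61.7% without it, and GC correction of the ranks moved the split over all paired regions to 26 higher and 126 lower. The contrast between regions with and without a GC box, and the part of GC content in it, were not tested.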

How the data were processed

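Accessible chromatin was measured in 6 libraries, and the authors deposited 1 narrowPeak list per library. Per the submitters' processing notes, cutadapt 3.4, Bowtie, SAMtools, Picard and MACS2 2.2.7.1 were used with build mm10. The deposited lists hold, per summit, the summit offset, a display score, the fold enrichment (ratio) and the p and q values as −log10, all the authors' own values and used only to rank or describe peaks within a list. Any shift of reads for the transposase and any blacklist are not given in the sources used here.

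Summits sharing an interval were joined. Gene starts came from GENCODE M21 and sequence from GRCm38. Ranks, limma 3.58.1 (trend, robust) in R 4.3.3, and exact tests were computed in Python 3.11.15, and the code was tested on simulated data. Named regions were the textbook pairs, the 5 highest and 5 lowest mean ranks in all 6 equal-length lists, the 5 largest differences in each direction with separate groups, any region past the threshold, regions of 1 operation only and pairs with an S1 gene. Pairs of other genes are examples of lists, and 1 region of the rule is not reported here. The members and lists were chosen with earlier results of these data known. Alternatives changed the ranking, cut-offs, start definition, comparison set, GC correction, model, replicate block and libraries.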

Additional observations from a re-analysis of the deposited data

How the results depend on the processing

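The 4 differences between paired and single starts kept their direction and an exact sign-flip p = 0.031 in all 39 alternatives that kept the 6 libraries, from 4.87 to 27.2 for rank (27.2 with the 20000 strongest peaks only), 48.6 to 126 bp for width, 0.207 to 0.374 for summits and 36.3 to 41.7 points for presence. The comparison at percentile 90 and above was chosen after seeing the data. Leaving out 1 library gave 6.92 to 7.11, 86.6 to 94.3 bp, 0.261 to 0.290 and 40.4 to 40.6 points, where 5 libraries cannot give an exact p below 0.0625. The difference of −0.109 in the UNx effect between the classes was −1.01 with ranks by fold enrichment (exact permutation p = 0.1, the smallest possible), −0.565 with all deposited peaks, −0.420 with the 20000 strongest, 0.175 with any transcript start, 0.321 with overlapping 5′ ends included, 0.0470 in CpG-dense regions and −0.399 to 0.0933 with 1 library left out, and the cause was not tested. For paired regions, UNx minus Sham was −1.67 to −0.0371 in rank, 83.8 to 174 bp in width and 0.117 to 0.399 in summits with 1 library left out, the lowest width and summits being those without Sham replicate 2. Over the other settings the rank difference was −2.93 to −0.192. The 0 paired regions past the limma threshold became 3 with normal scores (1 higher and 2 lower; 82 of 690 at unadjusted p under 0.05) and 2 of 1094 with overlapping 5′ ends included. Over all tested regions the 606 calls became 22 with all deposited peaks, 2 with the 20000 strongest, 3 with ranks by fold enrichment, 2 with GC correction, 1570 with normal scores, 0 with no filter on lists, and 31 to 373 with 1 library left out (31 without UNx replicate 1, 35 without Sham replicate 3, 49 without UNx replicate 3, 73 without Sham replicate 1, 96 without Sham replicate 2, 373 without UNx replicate 2). Same-numbered libraries did not deviate together (correlations 0.00812, −0.0999 and −0.0492), and their shared numbers were not taken as pairs. With a replicate block 0 paired regions passed (62 of 690 at unadjusted p under 0.05; 59 of all regions passed), and with the block on GC-corrected ranks 0 of all regions passed. Of 241 values of 13 named differences 240 kept direction and side. Much of the agreement in direction was fixed in advance. These regions had separate groups, so leaving out 1 library could not reverse them. Settings that changed only the start definition, the filter on lists, the model or the block used the same ranks and gave the same difference. The 1 reversal was Sirt1/Dnajc12, −0.0504 with ranks by fold enrichment. That ranking placed Hadha/Hadhb at 52.0, Col4a4/Col4a3 at 50.4 and Brca1/Nbr1 at 73.8. Unknown depth limits every comparison of presence in weak regions.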
